A study of Bos taurus with 9 samples.

Results

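C1QA (ENSBTAG00000007153), C1QB (ENSBTAG00000011196) and C1QC (ENSBTAG00000011193) encode the A, B and C chains of complement C1q, and AIF1 (ENSBTAG00000020554) encodes a calcium-binding protein of the macrophage cytoskeleton. These 4 genes, picked by name as genes of tissue macrophages, were read from a deposited table of 24616 bovine genes. C1q is the recognition molecule of the classical complement pathway: it binds antibody complexes, microbes and dying cells, and activates the proteases C1r and C1s. Most complement proteins of the blood come from the liver, but C1q is made mainly by macrophages and dendritic cells in tissues, where it also helps in the clearance of dead cells. The gut wall holds many resident macrophages, which take up microbes that cross the epithelium, and AIF1 bundles actin in such cells during movement and phagocytosis.

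The study compared rectal tissue of steers that shed Escherichia coli O157 at high numbers with that of steers free of it, and asked whether expression in the host tissue differs. The super-shedders (SS) were 5 steers, numbered 274, 287, 294, 299 and 310, that shed above 4 log10 CFU per g of feces when screened. The non-shedders (NS) were 4 steers, numbered 108, 152, 165 and 242, that were negative for the bacterium. Tissue was taken at slaughter, some days after that screening, and not all SS were still above that level then. All were feedlot steers on a barley-based diet and were naturally colonised or free of the bacterium, so the groups were observed and not assigned. The NS were pen-mates of SS, but which steers shared a pen is unknown here. From each steer, 2 biopsies of rectal tissue were taken above the rectal-anal junction, at a distance of 3 to 5 cm. The share of each wall layer in them is not stated. For each steer, 1 stranded total RNA library was sequenced, so p-values measure the spread between steers. The values are CPM, which are reads on a gene for every 1000000 reads on all genes of the library. The reads behind them could be recovered, and the totals were 12278503, 10437925, 10655374 and 8580654 in NS 108, 152, 165 and 242, and 5412523, 11807195, 7492386, 7101669 and 11521214 in SS 274, 287, 294, 299 and 310.

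C1QA was at 90.0, 122, 103 and 303 CPM in NS 108, 152, 165 and 242, against 399, 126, 84.4, 80.8 and 103 CPM in SS 274, 287, 294, 299 and 310. In the same order of steers, C1QB was at 81.3, 123, 102 and 282 CPM in NS, against 433, 94.2, 69.9, 85.3 and 74.8 CPM in SS. C1QC was at 60.2, 66.3, 66.9 and 224 CPM in NS, against 243, 93.3, 43.0, 55.2 and 64.2 CPM in SS. For each chain, 1 steer of each group, NS 242 and SS 274, stood far above the others, the other 7 steers lay close together, and the groups overlapped. AIF1 was at 14.7, 17.5, 15.3 and 45.5 CPM in NS, against 38.2, 16.3, 12.3, 18.7 and 17.3 CPM in SS. Here too NS 242 and SS 274 were the highest and the groups overlapped, but which of them was higher depended on the scaling. AIF1 was higher in NS 242 in the CPM as deposited, and higher in SS 274 after median-of-ratios scaling (39.9 in NS 242 and 42.6 in SS 274) and after TMM scaling (40.2 and 42.3), while all 3 chains were higher in SS 274 under each of these scalings. All 4 genes passed the filter of at least 0.5 CPM in at least 4 steers, as did 15410 genes in all. The reads on a C1q chain ranged from 322 (C1QC in SS 294) to 2598 (C1QA in NS 242), and those on AIF1 from 92 in SS 294 to 390 in NS 242. Counting error therefore put AIF1 in SS 294 between 9.90 and 15.1 CPM and in NS 242 between 41.1 and 50.2 CPM (95% Poisson intervals, which cover counting error only).

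**Figure D1:**
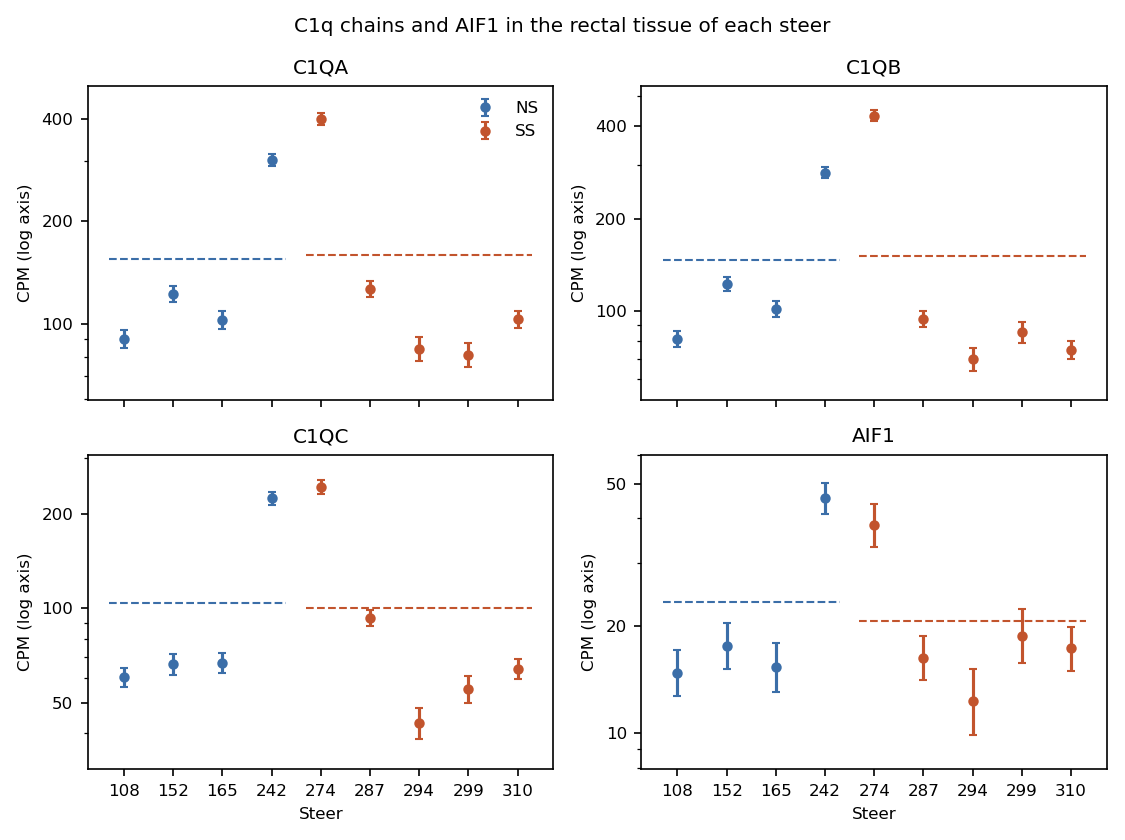
CPM of C1QA, C1QB, C1QC and AIF1 on a log axis in each of the 9 steers, with 95% Poisson intervals for counting error and dashed lines at the means of 4 NS and 5 SS. NS 242 and SS 274 lie above the other 7 steers in each panel, and the group means lie above all steers of their group but 1 in each panel.

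No difference between SS and NS was found for these genes. C1QA averaged 154 ± 99.8 CPM over the 4 NS, against 159 ± 135 CPM over the 5 SS (SD), and C1QB 147 ± 91.8 and 151 ± 157 CPM. C1QC averaged 104 ± 79.6 CPM in NS, against 99.8 ± 82.3 CPM in SS, and AIF1 23.3 ± 14.8 and 20.6 ± 10.2 CPM (SD, n = 4 and 5). On the log2(CPM + 0.5) scale, which understates changes of low genes, the difference SS minus NS was -0.08 for C1QA (standard error 0.52, 95% interval -1.24 to 1.08), and exact permutation over the 126 divisions of the steers gave a two-sided p of 0.921. For C1QB the log2 difference was -0.21 (standard error 0.57, -1.48 to 1.07, exact permutation p = 0.683). For C1QC it was -0.12 (standard error 0.55, -1.36 to 1.12, exact permutation p = 0.81) and for AIF1 -0.11 (standard error 0.41, -1.04 to 0.81, exact permutation p = 0.778). The smallest p that this test can give is 0.0159. The intervals reach past a doubling or halving for each C1q chain, and past a halving for AIF1. Differences of those sizes are therefore not excluded with these steers. In bulk tissue, fewer macrophages and less RNA per macrophage cannot be told apart.

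limma called 0 of these 4 genes by the thresholds set for a call, an adjusted p under 0.05 with a log2 difference beyond 1 in either direction, as it called 0 of all 15410 genes tested (0%). The adjusted p in limma was 0.982, 0.96, 0.973 and 0.97 for C1QA, C1QB, C1QC and AIF1. At an unadjusted p below 0.05, limma counted 0 of the 4 genes as higher and 0 as lower in SS, where 0.357% of all genes were higher and 3.6% lower (55 and 555 genes). After median-of-ratios scaling these numbers were 191 and 267, so the split between the directions depended on the scaling. It also differed between tools, with 240 higher and 357 lower in edgeR, and 497 higher and 400 lower in DESeq2. edgeR called 0 genes in all, while DESeq2 called 19 of all genes (0.123%) and 0 of the 4, and gave no p for C1QB. Over all genes, the log2 difference had a median of -0.13, and of 0.01 after median-of-ratios scaling. Set against that median, the log2 differences were 0.05 for C1QA, -0.07 for C1QB, 0.01 for C1QC and 0.02 for AIF1.

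The sign of each difference depended on single steers. Without NS 242 the log2 difference was 0.31 for C1QA, 0.17 for C1QB, 0.33 for C1QC and 0.26 for AIF1. Without SS 274 it was -0.48, -0.69, -0.51 and -0.36. With both left out, C1QA averaged 105 ± 16.2 CPM over 3 NS, against 98.6 ± 20.9 CPM over 4 SS (SD), and C1QB 102 ± 20.7 and 81.1 ± 10.8 CPM. C1QC was then at 64.5 ± 3.72 and 63.9 ± 21.4 CPM and AIF1 at 15.9 ± 1.48 and 16.1 ± 2.76 CPM. The log2 differences without both were -0.10, -0.32, -0.07 and 0.01 for C1QA, C1QB, C1QC and AIF1 (exact permutation p = 0.629, 0.171, 0.743 and 0.914). With 7 steers, the smallest exact permutation p is 0.0571, so no difference could pass 0.05. Median-of-ratios scaling turned the sign for C1QA, C1QC and AIF1, and left C1QB at -0.05.

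NS 242 and SS 274 were each compared with the rest of their own group. In NS 242, C1QA was 2.89 times the mean of the other NS, C1QB 2.77 times, C1QC 3.47 times and AIF1 2.87 times. In SS 274, C1QA was 4.04 times the mean of the other SS, C1QB 5.34 times, C1QC 3.81 times and AIF1 2.37 times. AIF1 was thus raised about as much as the chains in NS 242 and less than each chain in SS 274. The log2 difference of SS 274 from NS 242 was 0.40 for C1QA, 0.62 for C1QB, 0.12 for C1QC and, in the CPM as deposited, -0.25 for AIF1, whose sign turned under both other scalings. Each comparison of this kind sets 1 library against others, and has no test. The 2 steers hold the highest values of all 4 genes, while they do so for 1162 of the 15410 genes tested (7.54%). They were singled out by these genes, so nothing is read from that count.

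The 3 chains of C1q assemble into 1 protein, so their proportion in each steer was examined. Of the summed CPM of the chains, C1QA took 36.5% (SS 299) to 42.8% (SS 294), C1QB 30.0% (SS 287) to 40.3% (SS 274) and C1QC 21.3% (NS 152) to 29.7% (SS 287). These are shares of reads, which also depend on transcript length, and are no measure of which chain has more molecules. The sum itself was 231, 311, 271 and 809 CPM in NS and 1075, 314, 197, 221 and 242 CPM in SS, in the order of steers given above. The sums above 314 CPM were those of NS 242 and SS 274, so the other 7 steers covered a narrow range of levels.

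The log2 ratio of C1QA to C1QB was 0.15, -0.01, 0.01 and 0.10 in NS 108, 152, 165 and 242, and -0.12, 0.43, 0.27, -0.08 and 0.46 in SS 274, 287, 294, 299 and 310. All NS values lay inside the range of SS. The ratio of C1QA to C1QC was 0.58, 0.88, 0.62 and 0.44 in NS and 0.71, 0.44, 0.97, 0.55 and 0.68 in SS on the same scale, and that of C1QB to C1QC 0.43, 0.89, 0.60 and 0.34 in NS and 0.83, 0.01, 0.70, 0.63 and 0.22 in SS. The lowest value was in SS 274 for C1QA to C1QB, in NS 242 for C1QA to C1QC, level with SS 287 to the second decimal, and in SS 287 for C1QB to C1QC. The SD of the log2 ratio over 9 steers was 0.21 for C1QA to C1QB, 0.18 for C1QA to C1QC and 0.29 for C1QB to C1QC, against 0.06, 0.07 and 0.07 from counting error alone. The single chains had SDs of 0.83 (C1QA), 0.92 (C1QB) and 0.88 (C1QC) on the log2(CPM + 0.5) scale. The spread of the levels rested on NS 242 and SS 274. Over the other 7 steers the SDs of the chains were 0.25, 0.28 and 0.33, and those of the ratios 0.21 for C1QA to C1QB, 0.19 for C1QA to C1QC and 0.30 for C1QB to C1QC, so there the ratio of C1QB to C1QC varied more than C1QB itself.

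Pairs of other genes whose proteins share a complex or a structure give a scale for these SDs. The log2 ratio had an SD of 0.15 for COL1A1 to COL1A2, the chains of collagen I, 0.18 for PSMB8 to PSMB9 of the immunoproteasome, 0.22 for MYH11 to DES of smooth muscle and 0.32 for the ribosomal pair RPLP0 to RPLP1. It was 0.71 for COL6A1 to COL6A3 of collagen VI. The SDs of the C1q chain ratios lay within the range of these pairs. That range includes COL6A1 to COL6A3, whose ratio varied about as much as COL6A1 itself (SD 0.69). MYH11 and DES themselves had SDs of 2.45 and 2.44. Lying within the range therefore does not show whether the chains keep their proportion. CD79A to CD79B (0.66) and S100A8 to S100A9 (0.52) had as few as 1 read in a library, and counting error alone gives 0.68 and 0.92 there.

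AIF1 was set against the chains in the same way. For each 100 CPM of summed C1q there were 6.37, 5.64, 5.64 and 5.62 CPM of AIF1 in NS 108, 152, 165 and 242, and 3.56, 5.18, 6.22, 8.46 and 7.14 CPM in SS 274, 287, 294, 299 and 310. The 4 NS were almost alike, whereas the SS ran from the lowest value, in SS 274, to the highest, in SS 299. The SD of the log2 ratio of AIF1 to C1QA was 0.34 over 9 steers, to C1QB 0.40 and to C1QC 0.35, against 0.12 from counting error for each. Over the 7 steers without NS 242 and SS 274 these SDs were 0.27, 0.26 and 0.30, which overlap with those of the chain ratios, and AIF1 itself had an SD of 0.20. The group means of all 6 ratios overlapped in their spread: the log2 ratio SS minus NS was 0.13 for C1QA to C1QB, 0.04 for C1QA to C1QC, -0.09 for C1QB to C1QC, -0.04 for AIF1 to C1QA, 0.09 for AIF1 to C1QB and 0.00 for AIF1 to C1QC. The exact permutation p ran from 0.381 to 1 over the 6 pairs, and each was 1 after Benjamini-Hochberg adjustment. Without SS 274, the difference of AIF1 to C1QA was 0.12 and that of AIF1 to C1QB 0.32.

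**Figure D2:**
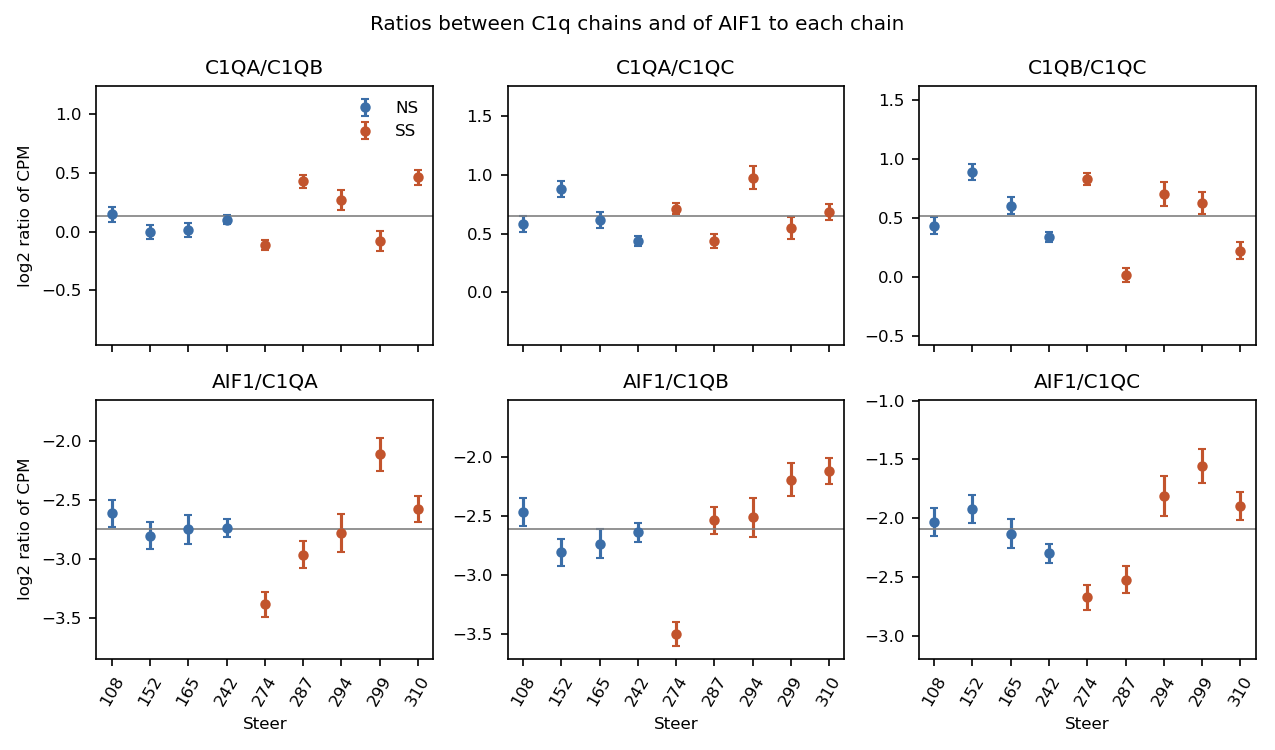
Log2 ratio of CPM for the 6 pairs among C1QA, C1QB, C1QC and AIF1 in each of the 9 steers, with the standard error from counting as bars and the mean of 9 steers as a grey line. Each panel spans the same height, and the ratio of AIF1 to C1QA and to C1QB is lowest in SS 274.

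Because NS 242 and SS 274 lie apart from the other 7 steers, a correlation over all 9 would rest on them, and it was examined within the 7. There Pearson's r was 0.67 between C1QA and C1QB, 0.83 between C1QA and C1QC and 0.54 between C1QB and C1QC (exact permutation p = 0.102, 0.00794 and 0.208, or 0.307, 0.0476 and 0.331 after adjustment over 6 pairs). Spearman's rho was 0.5, 0.857 and 0.714 (exact permutation p = 0.267, 0.0238 and 0.0881, or 0.454, 0.143 and 0.264 adjusted). For AIF1, r was 0.29 with C1QA, 0.47 with C1QB and 0.48 with C1QC (exact permutation p = 0.545, 0.276 and 0.255, adjusted 0.545, 0.331 and 0.331). Its rho was 0.143, 0.464 and 0.179 (exact permutation p = 0.783, 0.302 and 0.713). Only the pair of C1QA and C1QC passed 0.05 after adjustment, by r and not by rho. Among all 15409 other genes tested, C1QC ranked 1 by r to C1QA over 9 steers and 238 over the 7, and C1QB ranked 2 and 1238. AIF1 ranked 25 and 5012. Outside NS 242 and SS 274, the shared course of AIF1 and the chains was therefore not visible above that of many other genes.

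Of 45 genes listed for the rest of the complement system, 15 had an identifier with a name, and all 15 were tested. limma called 0 of them, and at an unadjusted p below 0.05 it counted 0 as higher and 1 as lower in SS (0 of 15 and 1 of 15, beside 0.357% and 3.6% of all genes). The median log2 difference was -0.24, with 5 genes higher and 10 lower, beside -0.13 for all genes tested. C1S, the protease that C1q activates, averaged 442 ± 105 CPM over the 4 NS, against 577 ± 469 CPM over the 5 SS (SD), with 1412 CPM in SS 274 and 324 to 493 CPM in the 7 steers. C3, the central component that all pathways cleave, was at 403 ± 266 and 400.1 ± 341 CPM, and C7 and C9, which form the membrane attack complex, at 526 ± 268 and 432 ± 140 CPM and at 197 ± 144 and 222 ± 233 CPM. CFB and CFD of the alternative pathway were at 275 ± 174 and 245 ± 180.2 CPM and at 101 ± 24.9 and 93.1 ± 65.9 CPM. The 7 genes of initiation and cascade with an identifier summed to 1886 CPM in NS 242, to 2547 CPM in SS 274 and to 1008 to 2424 CPM in the 7. C3, C7, C9, CFB and CFD were not highest in NS 242 and SS 274 together, where 7.54% of all genes tested were. The steers were singled out by C1q, so nothing is read from a contrast with the chains. FCN2, a ficolin of the lectin pathway, was at 57.5 CPM in NS 242 and 0.267 to 2.59 CPM in the 7 steers.

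Among the regulators, SERPING1, the inhibitor of C1r and C1s, averaged 207 ± 22.9 CPM over the 4 NS, against 254 ± 119 CPM over the 5 SS (SD), with 458 CPM in SS 274. CFI, a protease that cleaves C3b, was at 340 ± 284 and 230.1 ± 196 CPM. CD59, which blocks the membrane attack complex, was at 22.9 ± 8.24 and 27.4 ± 17.7 CPM. CLU (clusterin), which binds that complex in fluid, was at 663 ± 248 and 741 ± 520 CPM. In the CPM as deposited, CLU and C1S were the 2 of the 15 genes that had their highest values in NS 242 and SS 274, beside 7.54% of all genes tested. CLU was at 951 CPM in NS 242 and at 944 CPM in SS 294, and C1S at 567 CPM in NS 242 and at 493 CPM in NS 152. Both orders turned under median-of-ratios and TMM scaling. Of proteins that bind C1q, CALR (calreticulin) was at 735 ± 167 and 671 ± 356 CPM and LRP1, its partner in the uptake of dead cells, at 699.7 ± 131 and 1279 ± 745 CPM. C1QBP, a mitochondrial protein that can bind C1q heads, averaged 51.3 ± 4.67 CPM in NS, against 37.4 ± 9.67 CPM in SS. The 3 receptors and binding proteins summed to 1376 CPM in NS 242, to 2846 CPM in SS 274 and to 1334 to 2198 CPM in the 7. The log2 difference of C1QBP was -0.49 (standard error 0.22, exact permutation p = 0.0317). It was the 1 gene of the 15 counted as lower by limma before adjustment, and it did not pass after adjustment over all genes.

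The name of macrophage genes could be checked only in part, because 4 of 29 listed macrophage genes had an identifier with a name. The others, among them CD68, CD163 and CSF1R, were not analysed here. SIRPA, a receptor that restrains phagocytosis, was at 154 CPM in NS 242, at 256 CPM in SS 274 and at 77.9 to 118 CPM in the 7 steers, so that SS 274 was above NS 242 and both above the rest, as for the C1q chains. LGMN, a lysosomal protease, was at 178 CPM in NS 242, at 111 CPM in SS 274 and at 90.2 to 115 CPM in the 7, and CTSS, the protease that trims the invariant chain, at 584, 530 and 148 to 686 CPM. TIMD4, a receptor for dying cells found on resident macrophages, was at 102 CPM in NS 242, at 26.4 CPM in SS 274 and at 4.54 to 43.4 CPM in the 7. So 1 of the 4 genes, SIRPA, had NS 242 and SS 274 as the highest steers, beside 7.54% of all genes tested. The steers were singled out by C1q and AIF1, so nothing is read from that count. The summed level of the 4 genes was 1017 CPM in NS 242, 923 CPM in SS 274 and 329 to 898 CPM in the 7, and none was at 0. Under median-of-ratios and TMM scaling, the sum in NS 242 lay within the range of the 7, and that in SS 274 was still above it. limma called 0 of the 4. At an unadjusted p below 0.05 it counted 1 as lower in SS, beside 3.6% of all genes. This was TIMD4, with a log2 difference of -1.91 (standard error 0.57). Names came in part from the study's list of genes called different between SS and NS. A gene may thus have a name because it differed in these same data, and nothing is read from this count.

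Genes of antigen presentation and of the lysosome, which macrophages share with other cells, were partly highest in the same 2 steers, as 7.54% of all genes tested were. The steers were singled out by C1q, and these counts were not tested. Of 12 listed genes of MHC class II presentation, 5 had an identifier, and 3 of these were highest in NS 242 and SS 274. The most abundant were HLA-DRA, with 1507 CPM in NS 242, 1028 CPM in SS 274 and 238 to 896 CPM in the 7, HLA-DQB1, with 457, 136 and 9.08 to 361 CPM, and CTSH (human-style names, as given with the identifiers). The summed level of the 5 was 2366 CPM in NS 242, 1445 CPM in SS 274 and 339 to 1418 CPM in the 7. Of 16 lysosome genes, 12 had an identifier, and they summed to 2829, 2808 and 1700.3 to 2578 CPM. In the CPM as deposited, 4 of them were highest in both steers. The most abundant were PSAP (729.9, 677 and 352 to 599 CPM), CTSB (357, 442 and 202 to 294 CPM) and LAMP2 (187, 361 and 199 to 271 CPM). CTSB was among the 4, but under median-of-ratios scaling it was higher in SS 294 than in NS 242. limma called 0 genes of either list, as it called 0% of all genes. At an unadjusted p below 0.05 it counted 0 of them, beside 0.357% of all genes higher and 3.6% lower in SS. The median log2 difference was -0.78 for the first list and -0.16 for the second.

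Markers of other cells were high in NS 242, in SS 274 or in both, depending on the cell type. The 9 leukocyte genes with an identifier, of 12 listed, summed to 5621 CPM in NS 242, to 1235 CPM in SS 274 and to 368 to 1629 CPM in the 7, with PTPRC the most abundant. The 6 B-cell genes of 10 listed summed to 593, 41.4 and 4.27 to 182 CPM, the 2 T-cell genes of 12 to 248, 24.9 and 5.74 to 45.0 CPM, and the 3 dendritic cell genes of 10, led by LY75, to 804, 90.7 and 19.0 to 428 CPM. By these sums NS 242 was the highest of all steers, whereas SS 274 lay within the range of the 7. Of the 9 leukocyte genes, 1 had NS 242 and SS 274 as its highest steers, beside 7.54% of all genes tested, and nothing is read from that count. At an unadjusted p below 0.05, limma counted 5 of the 9 leukocyte genes as lower in SS, with all 6 B-cell genes, 1 of 2 T-cell genes, 2 of 3 dendritic cell genes and 1 of 3 plasma cell genes, beside 3.6% of all genes, and it called 0 of them. Their median log2 differences were -1.37, -2.86, -1.46, -1.53 and -1.38 in that order. These counts were not run with steers left out. Because names came in part from the study's list of genes called different between SS and NS, the counts can hold genes named for that difference. Nothing is read from them. The 11 fibroblast genes of 12 listed, led by COL1A2, summed to 8244 CPM in NS 242, to 28210.3 CPM in SS 274 and to 2148 to 15777 CPM in the 7. The 2 adipocyte genes of 6, led by LPL, summed to 852, 3343 and 22.7 to 403 CPM, and the 3 endothelial genes of 10 to 301, 588 and 76.8 to 472 CPM. The sums of these 3 lists were thus highest in SS 274, but PECAM1, the most abundant endothelial gene, was at 348 CPM in SS 294 and 273 CPM in SS 274. Both adipocyte genes, LPL and FABP4, were highest in SS 274 and second highest in NS 242.

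Both steers were low in genes of the epithelium, and SS 274 was the lowest of all in genes of muscle. The 16 genes of colonic epithelium, all with an identifier and led by PIGR, summed to 2566 CPM in NS 242, to 2385 CPM in SS 274 and to 249 to 36575 CPM in the 7. The low end of that range was SS 294, in which the 10 smooth muscle genes of 11 listed, led by MYH11, summed to 57302 CPM, against 2963 CPM in NS 242 and 435 CPM in SS 274. SS 294 had the lowest C1QC and AIF1 of all steers, and the lowest C1QB in the CPM as deposited, where SS 310 was lower under median-of-ratios and TMM scaling. The 3 plasma cell genes of 8 summed to 1506, 247 and 206 to 5470.2 CPM. Most of that sum was JCHAIN in NS 242 (1169 CPM) and XBP1 in SS 274 (180.1 CPM), while POU2AF1 was at 145 CPM in NS 242, the highest of all steers, at 7.94 CPM in SS 274 and at 0.534 to 71.8 CPM in the 7. The 4 genes of monocytes and neutrophils of 11 summed to 207, 591 and 385 to 1425 CPM, and most of that in NS 242 and SS 274 was VCAN (145, 581 and 374 to 699 CPM). S100A12 (28.0, 7.94 and 1.87 to 677 CPM) and S100A9 (19.7, 1.29 and 0.133 to 112 CPM) were second highest in NS 242. For S100A12 this held only in the CPM as deposited, where SS 310 was at 27.9 CPM. Under median-of-ratios and TMM scaling SS 310 was above NS 242. The 4 reference genes of 6 summed to 6479, 3314 and 4232 to 5108 CPM. No listed gene with an identifier was at 0 in any steer, and the lists of the C1q domain family, of mast cells and of enteric neurons and glia, with 20, 7 and 8 genes, had no gene with a name and were not analysed here. SS 274 was also the shallowest library. The part of tissue composition and of depth in the levels of C1q and AIF1 was not tested.

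**Figure D3:**
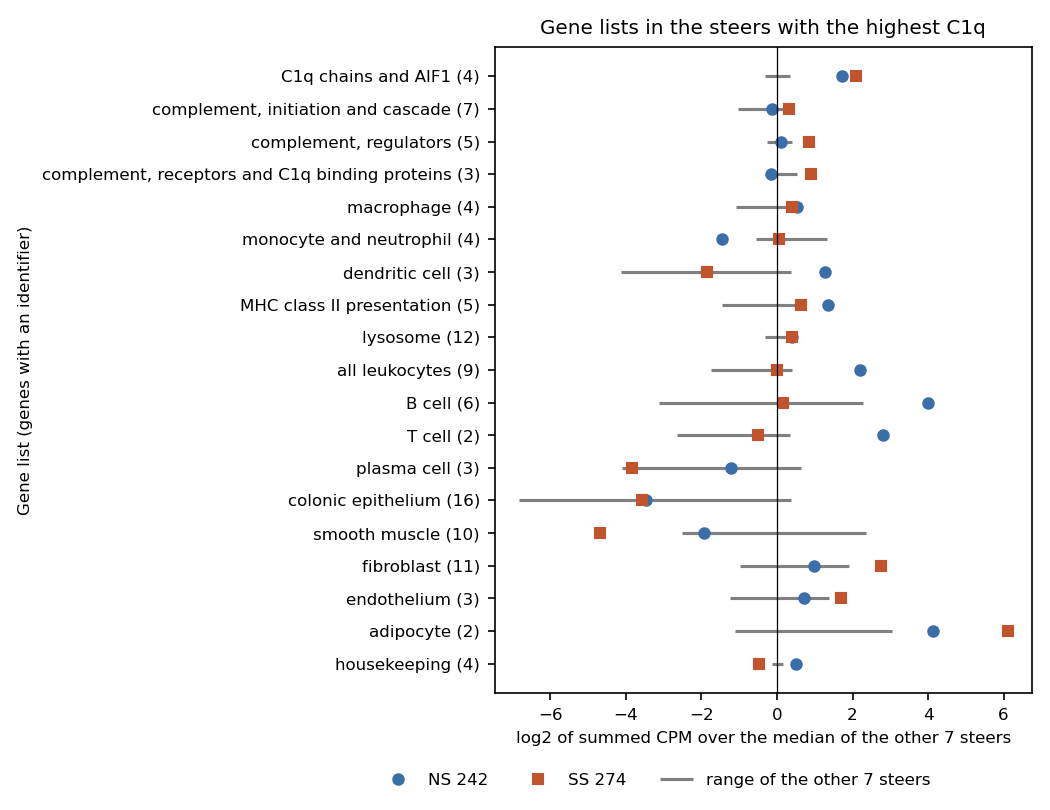
Log2 of the summed CPM of each gene list in NS 242 (circles) and SS 274 (squares) over the median of the other 7 steers, whose range is the grey line, with the number of genes with an identifier in brackets. In the CPM as deposited, the lists of C1q and AIF1, macrophages, MHC class II presentation, lysosomes and adipocytes are above the range in both steers. Those of leukocytes, B cells, T cells, dendritic cells and reference genes are above it in NS 242 alone. Those of complement, fibroblasts and endothelium are above it in SS 274 alone. For macrophages, NS 242 falls within the range under median-of-ratios and TMM scaling.

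The level of C1QA was also set against that of 7 genes of other lists, a comparison chosen after the values were seen, beginning with PTPRC, the common leukocyte phosphatase. C1QA was 0.225 times PTPRC in NS 242, 1.67 times in SS 274 and 0.265 to 1.08 times in the 7, all on the CPM scale and compared only between steers. Against LAPTM5, another leukocyte gene, the ratio was 0.292 in NS 242, 1.5 in SS 274 and 0.280 to 0.953 in the 7. SS 274 was above the range of the 7 for both genes, and NS 242 was below it for PTPRC and inside it for LAPTM5. Against HLA-DRA the ratio was 0.201 in NS 242, 0.388 in SS 274 and 0.121 to 0.354 in the 7, and against CTSS 0.518, 0.753 and 0.157 to 0.568. Against SIRPA, it was 1.97, 1.56 and 0.763 to 1.43, against COL1A2 0.101, 0.0477 and 0.0155 to 0.250, and against PECAM1 1.48, 1.46 and 0.242 to 2.55. The order of the steers thus depended on the gene that C1QA was set against.

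Over the 9 steers, the genes with a name and a mean of at least 5 CPM whose log2 level was most like the mean of the 3 C1q chains were RAB8B (r = 0.97), NFKBIA (0.95), AIF1 (0.94), RAP1B (0.92), RNF130 (0.91), CNIH4 (0.90), CXCL9 (0.90), CST3 (0.90), SIRPA (0.89) and ARL6IP5 (0.89), out of 2041 genes. RAB8B, a GTPase of vesicle transport, was at 484 CPM in NS 242, at 476 CPM in SS 274 and at 160.1 to 190.2 CPM in the 7. NFKBIA, the inhibitor of NF-kappaB, was at 138, 155 and 40.9 to 62.1 CPM, and CXCL9, a chemokine induced by interferon gamma, at 89.6, 41.4 and 8.54 to 20.8 CPM. CST3 (cystatin C), which inhibits cathepsins, was at 508, 987 and 141 to 279 CPM. In the CPM as deposited, all 10 genes had NS 242 and SS 274 as their highest steers. So did all of the 50 genes of highest r with or without a name, beside 7.54% of all genes tested. For ARL6IP5, median-of-ratios scaling put another SS steer above NS 242. The genes were ranked by likeness to a C1q mean whose spread rests on NS 242 and SS 274, so nothing is read from these counts. Within the 7 steers, r fell to 0.41 for RAB8B, 0.26 for NFKBIA, 0.47 for AIF1, -0.05 for CST3, 0.14 for SIRPA, 0.23 for RNF130, 0.61 for CXCL9 and -0.36 for ARL6IP5, and was 0.92 for CNIH4 and 0.81 for RAP1B. By Spearman's rho, 1 of the 10 genes was again among the 10 nearest.

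Among genes with a name and a mean of at least 5 CPM, those most like AIF1 were CXCL9 (r = 0.96), RAB8B (0.95), C1QC (0.94), NFKBIA (0.94) and CTSH (0.93), a lysosomal protease at 170.4 CPM in NS 242, at 165 CPM in SS 274 and at 62.2 to 106 CPM in the 7. By the same limits of a name and a mean of at least 5 CPM, the genes least like the C1q mean were RGMB (r = -0.96), POSTN (-0.94), PYGB (-0.94), SPARCL1 (-0.93) and NAA50 (-0.93). POSTN (periostin), a matrix protein, was at 89.5 CPM in NS 242, at 26.6 CPM in SS 274 and at 237 to 905 CPM in the 7. SPARCL1, another matrix protein, was at 382, 224 and 853 to 3123 CPM. These r describe 9 points, of which 2 lie apart, and are given without p.

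In the bovine RefSeq annotation of ARS-UCD2.0, a later assembly than the UMD3.1 of the deposited values and used here only for the order of genes, the 3 C1q genes stand side by side, in the order C1QB, C1QC and C1QA, with 1 further locus between the first and second. The gene after C1QA is EPHA8. AIF1 stands between NCR3 and LST1, next to LTB and TNF.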

How the data were processed

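Total RNA of rectal tissue from 9 steers was sequenced by the authors, who mapped reads to UMD3.1 with Tophat2. The authors deposited CPM per Ensembl gene, and the submitters' processing notes name HTSeq and edgeR without a role. The CPM were whole multiples of 1 read (100% of values, tolerance 0.01 reads), so reads were recovered. Groups came from the sample labels. limma 3.58.1 (R 4.3.3, eBayes with trend) was run on log2(CPM + 0.5) for genes that reached 0.5 CPM in 4 or more steers, two-sided, with Benjamini-Hochberg adjustment over all genes tested. edgeR 4.0.16 and DESeq2 1.42.0 were run on the recovered reads as alternatives, beside other pseudocounts, filters, scalings, array weights and the omission of steers.

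Single genes, ratios and correlations were tested by exact permutation, two-sided, in Python 3.11.15 with numpy 2.4.6, pandas 2.3.3 and scipy 1.17.1, and figures drawn with matplotlib 3.10.9. The two-sided p is double the smaller tail. An earlier form, which counted divisions at least as far from 0, was replaced after its p-values had been seen, and both are compared with the alternatives. The limma step was tested on simulated data. The 4 genes and the lists were chosen with earlier results of these data known. Genes that could be named were the 4, complement and macrophage genes with a mean of at least 1 CPM, the 3 most abundant of each other list, fixed pairs, and the 10 and 5 genes most like the C1q mean and AIF1 and the 5 least like the C1q mean. HLA-DMB was named after its values were seen. A complement gene that the lists count is not reported here on its own. Names came from the study's supplementary gene lists for 2052 identifiers. These lists include the study's list of genes called different between SS and NS. The study's own test of FPKM was not used here.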

Additional observations from a re-analysis of the deposited data

Results flagged for a closer look

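In groups of 4 or 5 steers, a steer was singled out where its gap to the nearest steer took up most of the range of its group (Dixon's test at 95%). The check first covered 22 groups (the 4 genes, their 6 ratios and the depth, in NS and SS) and singled out 7. It was widened to 84 groups after those values had been seen, to take in the complement, macrophage and MHC class II genes and the genes most like C1q or AIF1, and then singled out 22. Chance singles out about 1 in 20 groups. The 4 genes were examined with their high steers already known, and the genes most like C1q were picked for sharing those steers, so these numbers are a description and no test.

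C1QA was far above its group in NS 242 (303 CPM) and in SS 274 (399 CPM), C1QC in the same steers (224 and 243 CPM) and AIF1 too (45.5 and 38.2 CPM). C1QB was so in SS 274 (433 CPM), while its 282 CPM in NS 242 did not pass. Both steers also stood out for RAB8B (484 CPM in NS 242 and 476 CPM in SS 274), NFKBIA (138 and 155 CPM), CXCL9 (89.6 and 41.4 CPM) and CST3 (508 and 987 CPM). SS 274 alone stood out for C1S (1412 CPM), SERPING1 (458 CPM), SIRPA (256 CPM) and ARL6IP5 (89.98 CPM), and NS 242 alone for FCN2 (57.5 CPM) and HLA-DMB (189 CPM). Outside these steers, LRP1 was low in NS 152 (504 CPM). The chain ratios and the depth singled out no steer.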

How the results depend on the processing

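No alternative took a log2 difference of C1QA, C1QB, C1QC or AIF1 or a chain ratio past 0.05, but signs turned. Under median-of-ratios and TMM scaling the log2 differences SS minus NS were 0.073 and 0.049 for C1QA, 0.032 and 0.0078 for C1QC and 0.034 and 0.010 for AIF1. edgeR gave 0.24, 0.24 and 0.14 for the A, B and C chains, and DESeq2 0.26, 0.26, 0.17 and 0.014 for the chains and AIF1. Without both NS 242 and SS 274, AIF1 was at 0.012. Leaving out 1 steer gave -0.48 to 0.31 for C1QA, -0.69 to 0.17 for C1QB, -0.51 to 0.33 for C1QC and -0.36 to 0.26 for AIF1, with SS 274 and NS 242 at the ends. limma with array weights, planned for all genes and read here for these 4, gave 0.0079 for C1QA, -0.11 for C1QB, 0.036 for C1QC and 0.20 for AIF1. Apart from these weights, 24 of 68 alternatives turned the sign of a gene, and 15 of 72 that of a ratio. Both totals include the exact permutation p that counts divisions at least as far from 0, which leaves the difference as it is and cannot turn a sign. The ratio differences ran from 0.06 to 0.21 (C1QA to C1QB), -0.034 to 0.13 (C1QA to C1QC), -0.17 to 0.030 (C1QB to C1QC), -0.20 to 0.12 (AIF1 to C1QA), -0.024 to 0.32 (AIF1 to C1QB) and -0.13 to 0.15 (AIF1 to C1QC) when 1 steer was left out. Without NS 242 and SS 274 they were 0.22, -0.033, -0.25, 0.11, 0.33 and 0.080 in the same order. The cause was not tested, beyond the weight of NS 242 and SS 274.

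The exact permutation p that counts divisions at least as far from 0, an alternative set after seeing the data, was 0.825, 0.675, 0.786 and 0.714 for C1QA, C1QB, C1QC and AIF1 and changed no call.

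Over all 9 steers, r was 0.93 to 0.98 for the 6 pairs and rests on NS 242 and SS 274. With 1 steer left out it was 0.95 to 0.98 (C1QA and C1QB), 0.97 to 0.99 (C1QA and C1QC), 0.92 to 0.97 (C1QB and C1QC), 0.91 to 0.96 (AIF1 and C1QA), 0.92 to 0.94 (AIF1 and C1QB) and 0.92 to 0.97 (AIF1 and C1QC). AIF1 and C1QA no longer passed 0.05 without NS 242, SS 274 or SS 294 (0.91, 0.91 and 0.92), nor did AIF1 with C1QB or C1QC without SS 294 (0.92 and 0.93).

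Over all genes, limma called 0, with 610 at an unadjusted p below 0.05 (55 higher and 555 lower in SS). It called 2 with array weights, and DESeq2 called 19. Leaving out 1 steer gave 0 to 1 called, with 1 without NS 108 or SS 299, and 316 to 1177 unadjusted: 380 without NS 108, 316 without NS 242, 404 without SS 274, 355 without SS 294 and 1177 without SS 287. Without NS 242 and SS 274 there were 251. Median-of-ratios scaling gave 191 higher and 267 lower, edgeR 240 and 357, and DESeq2 497 and 400. By Spearman's rho, 1 of the 10 genes nearest to C1q and 1 of the 5 nearest to AIF1 were kept. No paired analysis was possible because the groups share no steer numbers and which steers shared a pen is unknown here.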
